A study of Mus musculus with 12 samples.

Results

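The 9 complement genes described here are C1qa, C1qb, C1qc, C1ra, C4b, C3, Cfb, C7 and Serping1, chosen by name, and the deposited table held all 9 among its 16411 genes. RNA had been sequenced from 6 mammary tumors and 6 benign mammary tissues of female mice of the MMTV-Neu-NDL-YD5 line, bred on FVB. Both groups carried the same heterozygous transgene, an activated form of HER2 (neu) under the MMTV promoter, which acts mainly in mammary epithelium, and no mouse received a treatment. The mice were monitored from 10 weeks of age and killed by 20 weeks, benign tissue was taken from glands without a visible tumor, and the tumors and benign samples came from different mice. The benign group was thus transgenic tissue, and no sample here was wild type.

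Complement is a cascade of plasma and tissue proteins that tags surfaces for uptake by phagocytes, attracts leukocytes and can perforate membranes. The classical pathway starts when C1q, assembled from the products of C1qa, C1qb and C1qc, binds a target and activates the proteases C1r and C1s, which cleave C4 and C2. The alternative pathway builds its convertase from C3 and factor B, both routes converge on C3, and C7 belongs to the terminal complex that inserts into membranes. C1 inhibitor, encoded by Serping1, inactivates C1r and C1s. The liver supplies most plasma complement, while macrophages are the main source of C1q in tissues and fibroblasts, adipocytes and other stromal cells make other components locally.

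Counts were scaled by edgeR's TMM method to CPM, counts relative to the size of the library. The groups were tested with edgeR's quasi-likelihood method (two-sided), with Benjamini-Hochberg adjusted p-values over the 13191 genes passing the expression filter. For each of the 9 genes that passed it, the log2 fold change from this test is given with its standard error (SE). A gene was called at an adjusted p-value under 0.1. Total counts ran from 5240853 to 8170687 in benign tissue and from 6111393 to 8588567 in tumors. Benign sample 1 held lymph node transcripts (873 CPM summed over 8 B cell genes, against at most 8.99 CPM in the other benign samples), and benign samples 3, 4 and 6 held skeletal muscle transcripts (35200 to 90680 CPM over 10 genes, against at most 384 CPM in the other benign samples). The benign tissue expressed its adipocyte markers (10 genes, 9757 to 22620 CPM) and the tumors expressed the epithelial marker Epcam at 964 to 1351 CPM, while no defining marker of either list was at 0 throughout a group.

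Of the 9 genes, 8 passed the expression filter, and 7 of these 8 were lower in tumors, beside 34.8% of all genes tested. The list's median log2 fold change was -1.29, beside -0.062 over all genes tested. The 7 were C1qa, C1qb, C1qc, C1ra, C3, Cfb and Serping1, and C4b was not called. None of the 9 was higher in tumors by edgeR (0 at the adjusted threshold and 0 at an unadjusted p under 0.05) or by DESeq2 (0), beside 28.2% of all genes tested. In 5 of the 8 tested genes every tumor lay below every benign sample, beside 21.2% of all genes tested, and in 0 of the 8 every tumor lay above, beside 14.7%. Because whole tissue was sequenced, fewer cells of a type and less RNA per cell cannot be told apart.

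**Figure D1:**
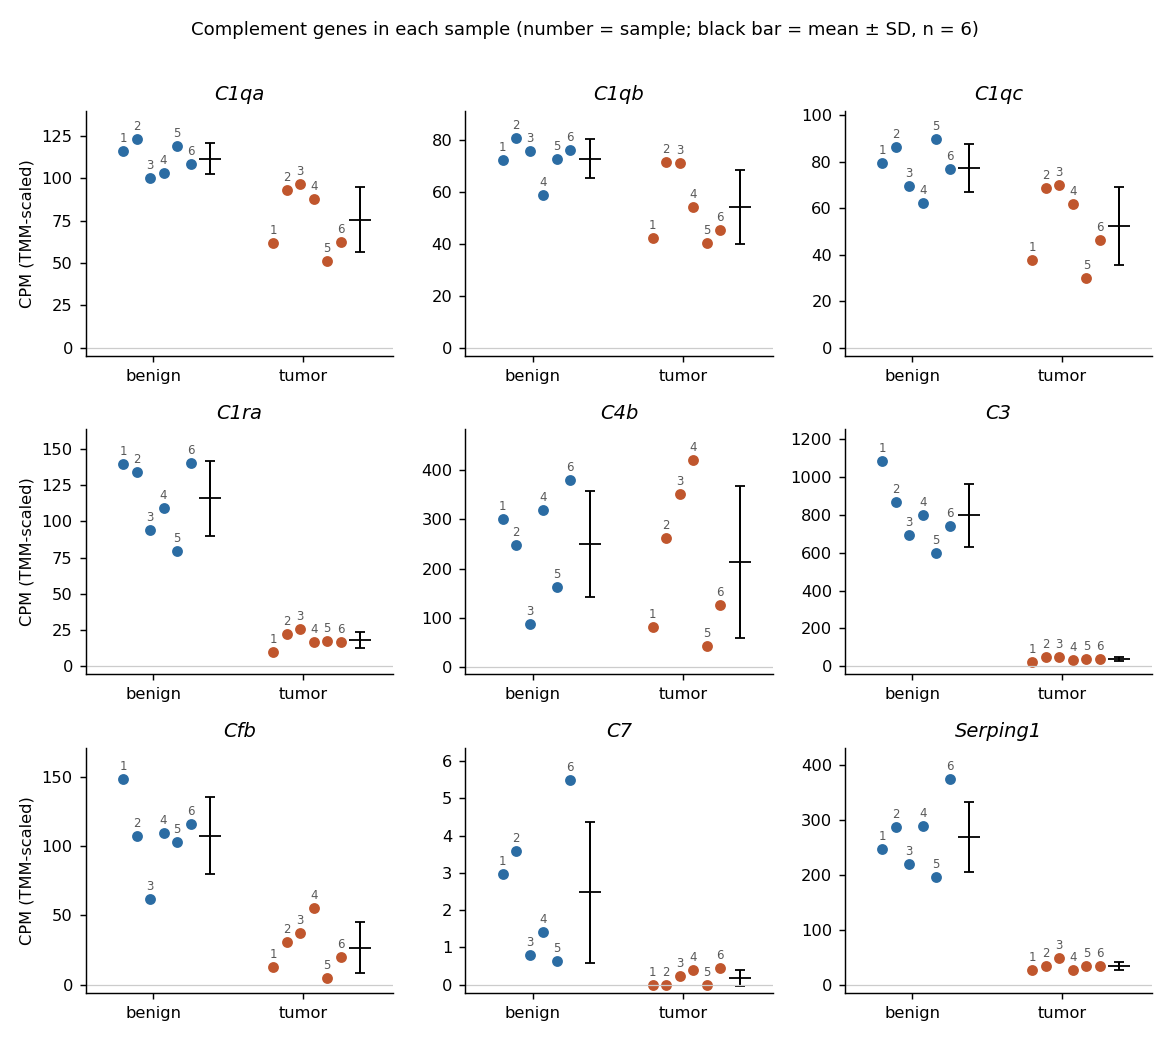
CPM of each complement gene (vertical axes, linear, each with its own range) in the 6 benign samples (blue) and 6 tumors (orange), numbered by sample, with the mean ± SD as a black bar. C3, C1ra and Serping1 sit far lower in every tumor than in any benign sample, the C1q genes fell modestly, and C4b overlaps between the groups with tumors from 42.8 to 420.0 CPM.

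The C1q genes lie side by side on the minus strand of mouse chromosome 4, C1qb at chr4:136880129-136886187, C1qc at chr4:136889804-136893065 and C1qa at chr4:136895917-136898803 (GENCODE M21 on GRCm38). C3, which fell most of the 8 tested, is at chr17:57203970-57228136 on the minus strand. The RefSeq promoter table (GRCm38.p6, from 250 bases before to 50 after the start site) matched 5 of the 9 genes, and 3 of these promoters are shown to set the adjacent, co-varying C1qb and C1qc beside C3. They cover chr4:136886151-136886450 for C1qb, chr4:136892865-136893164 for C1qc and chr17:57228087-57228386 for C3, all on the minus strand and printed 5′ to 3′, with matches to the searched motifs in capitals.
C1qb: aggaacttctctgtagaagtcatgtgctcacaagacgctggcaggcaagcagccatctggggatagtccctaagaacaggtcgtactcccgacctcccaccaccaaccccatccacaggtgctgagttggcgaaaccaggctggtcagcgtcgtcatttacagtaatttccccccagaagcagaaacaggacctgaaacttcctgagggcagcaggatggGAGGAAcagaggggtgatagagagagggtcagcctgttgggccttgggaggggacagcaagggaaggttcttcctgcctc
C1qc: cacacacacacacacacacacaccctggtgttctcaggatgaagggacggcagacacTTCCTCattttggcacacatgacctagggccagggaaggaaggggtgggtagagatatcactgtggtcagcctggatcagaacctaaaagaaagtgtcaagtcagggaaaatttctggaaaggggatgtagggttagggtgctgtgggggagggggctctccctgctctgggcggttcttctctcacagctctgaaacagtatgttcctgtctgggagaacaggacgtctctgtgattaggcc
C3: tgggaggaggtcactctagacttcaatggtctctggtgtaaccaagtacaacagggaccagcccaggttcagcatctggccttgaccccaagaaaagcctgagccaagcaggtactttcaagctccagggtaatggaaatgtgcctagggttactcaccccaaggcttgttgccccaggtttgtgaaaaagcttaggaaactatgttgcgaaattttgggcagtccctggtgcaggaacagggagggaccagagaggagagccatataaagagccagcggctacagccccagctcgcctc
The motifs, searched on both strands, were GAGGAA (the core of PU.1 sites, a myeloid factor), TTCNNNGAA (STAT sites), GAAA followed 2 bases later by GAAA (interferon-stimulated response elements) and GGG followed 2 bases later by TTTCC (an NF-kappaB-like site). C1qb held GAGGAA at -30 and C1qc held its reverse complement at -193, counted from the RefSeq start site. Of all 32851 promoters in the table, 28.3% held this motif. The C3 promoter held none of these letter strings in the window. C1ra, in its promoter, held TTCNNNGAA at 32 and the reverse complement of GAGGAA at 44, and C7 held TTCNNNGAA at -164. For C1qc and C1ra the RefSeq start site lies inside the gene as GENCODE M21 places it, not at its edge. Their distances therefore hold for the RefSeq start site only. TTCNNNGAA was in 8.3% of all promoters, the response element in 3.44% and the NF-kappaB-like site in 1.63%. A match here describes letters only.

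The recognition subunits of the classical pathway all fell, by 0.43, 0.56 and 0.56 on the log2 scale for C1qb, C1qa and C1qc. C1qa, the A chain of C1q, ranged from 99.99 to 123.6 CPM in benign tissue (median 112.5) and from 51.4 to 96.9 CPM in tumors (median 75.0). Every tumor lay below every benign sample, and the gap was narrow, since tumors 2, 3 and 4 reached 93.2, 96.9 and 87.6 CPM while tumors 1, 5 and 6 were at 62.0, 51.4 and 62.3 CPM. The log2 fold change of C1qa was -0.56 (SE 0.16, edgeR adjusted p = 0.0080). C1qb, the B chain, ranged from 58.8 to 80.8 CPM in benign tissue (median 74.3) and from 40.2 to 71.7 CPM in tumors (median 49.6). Tumors 1, 4, 5 and 6 lay below every benign sample and tumors 2 and 3 inside the benign range. Its log2 fold change was -0.43 (SE 0.16, edgeR adjusted p = 0.036). This call was lost without benign sample 2 (adjusted p = 0.12) and without tumor 1 (0.14), 4 (0.10), 5 (0.13) or 6 (0.13), and without benign samples 3, 4 and 6 together (0.10). C1qc, the C chain, ranged from 62.2 to 89.5 CPM in benign tissue (median 78.0) and from 29.8 to 70.1 CPM in tumors (median 53.8). Tumors 2 and 3 again overlapped the benign samples. The log2 fold change was -0.56 (SE 0.20, edgeR adjusted p = 0.030), and the call was lost without tumor 1 (-0.42, adjusted p = 0.10).

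The order of the tumors was much alike for the C1q chains, with tumors 2, 3 and 4 high and tumors 1, 5 and 6 low. Within samples, the log2 difference between C1qa and C1qc was 0.54 ± 0.11 in benign tissue and 0.56 ± 0.15 in the tumor group (mean ± SD, 6 samples each), a change of 0.02 (exact permutation test, two-sided, adjusted p = 0.91 over 36 pairs of genes). The difference between C1qa and C1qb changed by -0.14 (exact permutation test, adjusted p = 0.15), and that between C1qb and C1qc by 0.16 (adjusted p = 0.21, exact). An unequal change among the C1q chains was not detected with 6 samples a group.

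The protease C1r, which C1q activates, fell much more than C1q itself. C1ra had 79.3 to 140.2 CPM in benign tissue (median 121.5) and 9.96 to 26.0 CPM in tumors (median 17.2). The groups were far apart, with the highest tumor, tumor 3, well below the lowest benign sample, sample 5. The mean fell 6.37-fold, from 116 ± 25.9 to 18.2 ± 5.53 CPM (SD, n = 6 per group), with a log2 fold change of -2.67 (SE 0.23, edgeR adjusted p = 5.7e-07). Relative to C1qa in the same sample, C1ra was lower in tumors by 2.08 log2 units (exact permutation test, adjusted p = 0.0056), in 6 of 6 tumors. C1ra lies at chr6:124512405-124523443 near its paralog C1rb (chr6:124570294-124581171), and the counting could have split reads between them. C1rb fell as well, from 12.9 ± 4.12 to 1.13 ± 0.510 CPM (log2 fold change -3.48, edgeR adjusted p = 2.1e-06).

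C1 inhibitor fell together with its protease targets. Serping1, at chr2:84765387-84775444, had 196 to 375 CPM in benign tissue (median 267.0) and 26.3 to 48.2 CPM in tumors (median 33.7). All 6 tumors lay far below the benign samples and varied 1.83-fold among themselves. The mean fell 7.95-fold, from 269 ± 63.6 to 33.9 ± 7.93 CPM, with a log2 fold change of -2.99 (SE 0.20, edgeR adjusted p = 6.2e-08). The difference between C1ra and Serping1 in the same sample changed by 0.30 log2 units (exact permutation test, adjusted p = 0.11), and this change passed 0.05 without benign sample 1 (0.38, adjusted p = 0.037) and without tumor 1 (0.39, adjusted p = 0.028, exact permutation tests).

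C3, on which all complement pathways converge, showed the largest decrease of the 9 genes. It had 597 to 1086 CPM in benign tissue (median 771) and 22.9 to 49.95 CPM in tumors (median 37.6). The lowest benign sample, sample 5, was far above the highest tumor, tumor 3. The mean fell 21.3-fold, from 798 ± 168 to 37.5 ± 10.2 CPM, with a log2 fold change of -4.41 (SE 0.23, edgeR adjusted p = 1e-08). Of the 13191 genes tested, 461 (3.49%) had a lower log2 fold change than C3. C3 fell by 3.82 log2 units more than C1qa and by 1.44 more than Serping1 in the same samples (exact permutation tests, adjusted p = 0.0056 each), in 6 of 6 tumors.

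Factor B, the protease of the alternative pathway convertase, fell with a wide spread among tumors. Cfb, at chr17:34856374-34862518 and next to C2 (chr17:34862604-34898265) on the same strand, had 61.7 to 148 CPM in benign tissue (median 108) and 4.60 to 55.6 CPM in tumors (median 25.3). Every tumor lay below every benign sample, yet the tumors spanned a 12.1-fold range, from tumor 5 to tumor 4. The log2 fold change was -2.01 (SE 0.45, edgeR adjusted p = 0.0021).

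C4b, one of the mouse genes for C4 and a substrate of C1s, was not called. It lies at chr17:34728380-34743882, and its near-identical paralog C4a was not in the table, so the C4b count may hold reads of both. C4b had 87.2 to 380 CPM in benign tissue (median 275) and 42.8 to 420.0 CPM in tumors (median 194). The groups overlapped, with tumors 1 and 5 below every benign sample, tumor 4 above every benign sample and tumors 2, 3 and 6 inside the benign range. The log2 fold change was -0.23 (SE 0.51, edgeR adjusted p = 0.73), and its sign turned without tumor 1 (0.01) or tumor 5 (0.06), so neither a difference nor its absence was shown at this spread. The tumors spanned a 9.80-fold range and the benign samples a 4.36-fold range.

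C4b and Cfb varied together from sample to sample. In the tumors, tumor 5 had the least of both (42.8 CPM of C4b and 4.60 CPM of Cfb), followed by tumors 1, 6, 2 and 3, and tumor 4 had the most of both (420.0 and 55.6 CPM). The log2 difference between C4b and Cfb was 2.95 ± 0.25 in tumors, within 2.64 to 3.24, and 1.11 ± 0.48 in benign tissue, within 0.50 to 1.71. All 6 tumors lay above all benign samples in this difference (1.84 log2 units, exact permutation test, adjusted p = 0.0056).

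**Figure D2:**
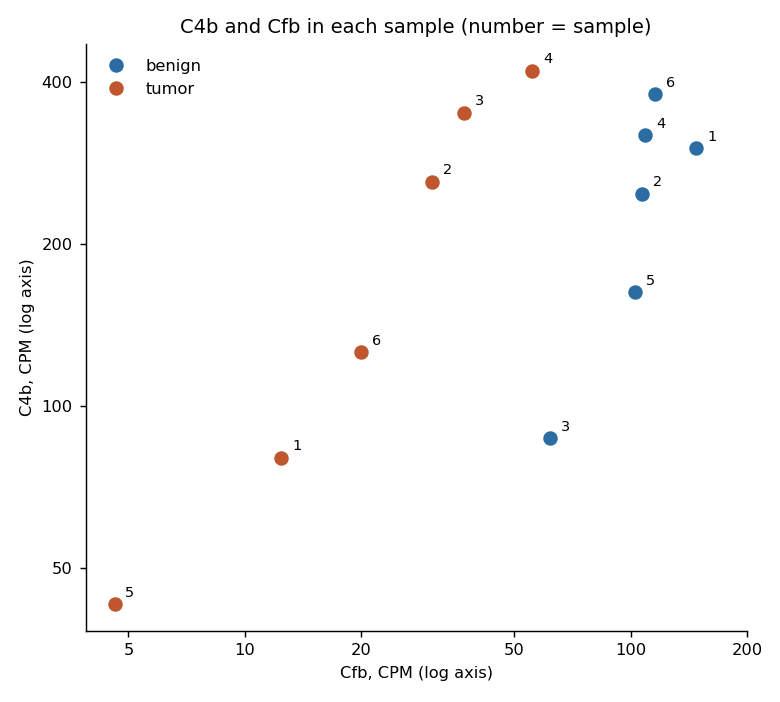
C4b against Cfb in CPM, both axes logarithmic, for the 6 benign samples (blue) and 6 tumors (orange), numbered by sample. Tumors run in 1 order for both genes, from tumor 5 (42.8 CPM of C4b) to tumor 4 (420.0 CPM), and lie to the left of the benign samples, with less Cfb at a like level of C4b.

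C7, which joins the terminal complex, was close to the detection limit. It had 16, 30, 6, 8, 5 and 31 counts in benign samples 1 to 6, equal to 2.96, 3.58, 0.792, 1.43, 0.624 and 5.50 CPM. In tumors 1 to 6 it had 0, 0, 2, 3, 0 and 4 counts, or at most 0.439 CPM. All tumors lay below all benign samples (exact permutation test, two-sided, p = 0.00216, the smallest p that 6 against 6 samples allow). C7 did not pass edgeR's expression filter. It was lower in tumors by DESeq2 (log2 fold change -3.69, adjusted p = 7.8e-05) and by edgeR with every gene of at least 1 count kept (-3.52, adjusted p = 0.0033).

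Levels were compared between genes per length, as CPM per kilobase of the longest GENCODE M21 transcript. In benign tissue C3 (155 ± 32.8) and Serping1 (152 ± 35.95) were highest, then C1qa (107.5 ± 8.92), C1qb (66.9 ± 6.89), C1qc (64.2 ± 8.496), C4b (46.4 ± 20.1), Cfb (39.1 ± 10.1), C1ra (38.9 ± 8.69) and C7 (0.927 ± 0.709; SD, n = 6). C1qa exceeded C1qb, and C1ra exceeded C7, in all samples without overlap, while the ranges of all other neighbors in this order overlapped. In tumors the C1q chains came first, C1qa at 72.7 ± 18.5, C1qb at 49.7 ± 13.1 and C1qc at 43.5 ± 14.1, followed by C4b (39.7 ± 28.6), Serping1 (19.2 ± 4.49), Cfb (9.70 ± 6.69), C3 (7.30 ± 1.98), C1ra (6.11 ± 1.86) and C7 (0.0676 ± 0.0781). Of the neighbors in tumors, only C1ra and C7 did not overlap. The summed level of the 9 genes was 554 to 757 CPM per kilobase in benign tissue and 153 to 341 in tumors. The C1q chains made up 31.1 to 44.3% of this sum in benign tissue (median 34.4%) and 59.8 to 75.4% in tumors (median 68.9%). C3 went from 23.1 ± 3.20% of the sum to 3.11 ± 0.935%, Serping1 from 22.6 ± 3.53% to 8.30 ± 2.66%, and C4b from 6.71 ± 2.42% to 14.3 ± 7.29%.

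**Figure D3:**
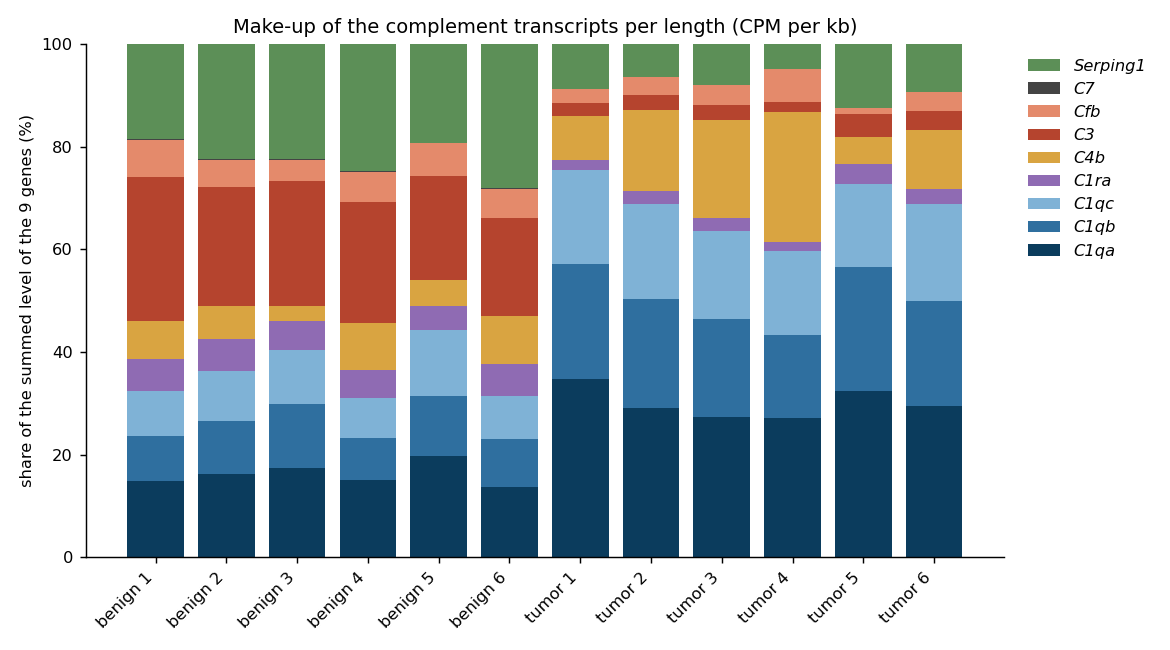
Share of each complement gene in the summed CPM per kilobase of the 9 genes (vertical axis, %) in each benign sample and tumor. The blue C1q segments reach 31.1 to 44.3% in benign samples and 59.8 to 75.4% in tumors, and the red C3 segment shrinks in every tumor.

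The other genes of the pathway were taken from a list of 48 by role, of which 38 were in the table and 29 passed the filter. Of these 29, 18 were lower in tumors (34.8% of all genes tested were), 3 were higher (28.2%) and 8 were not called, with a median log2 fold change of -1.49. In 16 of the 29 every tumor lay below every benign sample, beside 21.2% of all genes tested, and in 1 every tumor lay above, beside 14.7%. Of the 9 untested genes, C8a, Cd55b and Vsig4 were at or under 3 counts in every benign sample and reached at most 0.675, 0.688 and 0.413 CPM in a tumor, and Masp2, Cfi and C9 averaged at most 1.16 CPM in either group.

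Of the other classical pathway genes, 4 of 5 tested fell, beside 34.8% of all genes tested. C1s1, which encodes the protease C1s, fell from 196 ± 62.5 to 12.9 ± 4.69 CPM (log2 fold change -3.92, edgeR adjusted p = 2.1e-07), C2, the second substrate of C1s, by 3.70 and C1s2 by 1.37 on the log2 scale. C1s1 and C1s2 are paralogs whose reads may be split. C1rl, a C1r-like protease, rose from 19.3 ± 7.27 to 35.3 ± 13.4 CPM (0.88, adjusted p = 0.029), with tumors 2 and 3 inside the benign range. Of the lectin pathway genes, both tested fell, the pattern recognition gene Fcna (-3.45) and the protease gene Masp1 (-2.64). Colec11, a collectin, was at the floor of 3 counts in every tumor and at least 2.98-fold lower than its benign mean of 1.23 CPM, taking 3 counts at the mean library size as 0.414 CPM.

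The alternative pathway showed the lowest value of the list. Cfd, which encodes factor D (adipsin), the adipocyte-secreted protease that cleaves factor B, had 552 to 2477 CPM in benign tissue and 3.03 to 23.4 CPM in tumors. No tumor came near a benign sample. Its log2 fold change was -7.45 (edgeR adjusted p = 1.3e-06), and it was -8.06 without tumor 6. Cfp, or properdin, which stabilizes the alternative convertase, fell by 2.25 on the log2 scale. Of the terminal genes, Hc (the gene for C5), C6 and C8g fell by 3.23, 3.04 and 1.33.

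Regulators and receptors moved less evenly. Of the fluid-phase regulators, Vtn (-3.98) and Clu (-1.20, adjusted p = 0.076) fell by edgeR, and Clu lost its call without benign sample 1 (adjusted p = 0.20), 2 (0.12) or 3 (0.11), and without tumor 1 (0.15), 4 (0.13), 5 (0.13) or 6 (0.16). Cpn2, a carboxypeptidase N subunit, was at the floor in every tumor and at least 10.9-fold lower than its benign mean, which rested mainly on 16.0 CPM in benign sample 4 and 8.52 CPM in benign sample 6. These were also the benign samples with the most brown fat transcripts (4 genes, 2454 and 545 CPM, against at most 97.1 CPM in the others), whose part in the Cpn2 level was not tested. Susd4 was not called (-0.12, edgeR adjusted p = 0.87). Of 5 membrane regulators tested, Cd59a, which blocks the terminal complex, fell (-1.49), and the other 4 (Cd55, Cd46, Cd59b and Cr1l) were not called. Of all genes tested, 34.8% were lower. Cr1l, the rodent convertase inhibitor Crry, averaged 77.4 ± 8.64 CPM in the benign group against 74.3 ± 4.47 CPM (log2 fold change -0.06, SE 0.09). Cd55 was at 65.0 ± 17.7 and 98.0 ± 38.8 CPM (0.59, edgeR adjusted p = 0.13), with 5 tumors above every benign sample and tumor 5 below them, and it was called higher by DESeq2 (0.63, adjusted p = 0.096), with total counts as the scaling (0.69, adjusted p = 0.079), with the filter at 1 count in total (0.69, adjusted p = 0.085) or at 10 counts in every sample (0.65, adjusted p = 0.095). It was also called higher without tumor 5 (0.86, adjusted p = 0.0015), without benign sample 1 (0.74, adjusted p = 0.084) or without benign sample 6 (0.70, adjusted p = 0.098).

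Of the receptors, C5ar2, a receptor for C5a, was the only tested pathway gene with every tumor above every benign sample. It was at 0 in benign samples 1, 3, 4 and 5, at 1.55 and 1.42 CPM in samples 2 and 6, and at 62.7, 15.7, 52.5, 34.2, 26.0 and 93.2 CPM in tumors 1 to 6. Its log2 fold change was 6.49 (SE 0.81, edgeR adjusted p = 2e-05). It was 7.50 without benign sample 2 and 5.90 without benign samples 1, 3, 4 and 6. C5ar1, the main C5a receptor and the neighbor of C5ar2 on chromosome 7, went the other way, from 14.8 ± 3.31 to 4.05 ± 1.43 CPM (-1.87, adjusted p = 3.5e-05). Cd93 (-2.03) and the leukocyte integrin chain Itgb2 (-1.69, and -0.89 without benign sample 1) also fell, Calr rose by 0.70, and C3ar1, Itgam and Itgax were not called. Cr2, the complement receptor of B cells and follicular dendritic cells, was at 98.0 CPM in benign sample 1, the library with lymph node transcripts, and at no more than 0.178 CPM in any other sample, so its bound of at least 39.6-fold against the benign mean rests on that library.

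**Figure D4:**
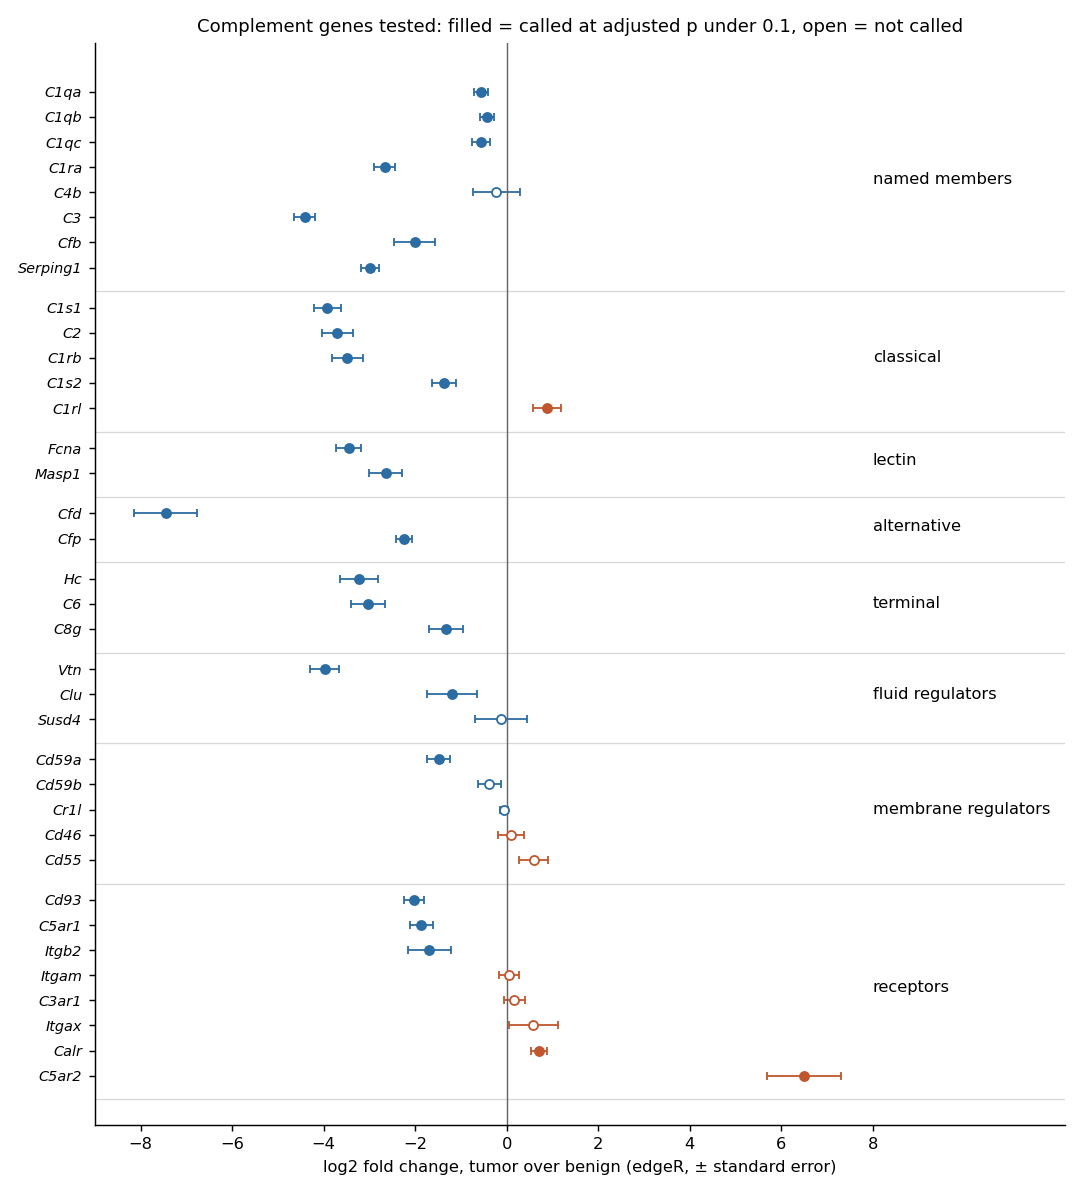
Log2 fold change of tumor over benign with its standard error (horizontal axis) for the 8 tested genes of the set and other tested complement genes, by role, with filled points called at adjusted p under 0.1. Points lie mostly left of 0, down to -7.45 for Cfd, with C5ar2 at 6.49 on the right.

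To place the 9 genes beside transcripts of the cells that may make them, each was set against the mean log2 CPM of a marker list in the same sample, with exact two-sided permutation tests adjusted over 36 values. All 12 fibroblast genes were lower in tumors, with a summed level of 5426 to 13470 CPM in benign tissue and 553 to 1279 CPM in tumors, and so were all 10 adipocyte genes (9757 to 22620 against 30.8 to 140 CPM) and all 8 endothelial genes (636 to 1243 against 88.7 to 110 CPM). The 14 macrophage genes split, with 7 lower, 2 higher and 4 not called of 13 tested (475 to 1160 against 288 to 602 CPM). These counts stand beside 34.8% of all genes tested that were lower and 28.2% that were higher. No gene of these lists was at 0 in all samples of a group. The mean log2 CPM changed from benign tissue to tumors by -0.81 for the macrophage list and -3.35 for the fibroblast list. It changed by -8.14 for the adipocyte list and 0.61 for the luminal epithelium list, and these changes enter every value below. How much such shifts in cell content contributed to the fall of each complement gene was not tested.

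Against the macrophage list, the C1q genes changed by 0.20 to 0.35 log2 units. The log2 difference of C1qa from the list was 2.50 ± 0.38 in benign tissue and 2.72 ± 0.13 in tumors (change 0.21, exact permutation test, adjusted p = 0.25), with a change of 0.46 (adjusted p = 0.030) without benign samples 3, 4 and 6, and C1qc changed by 0.20 (adjusted p = 0.35, exact). C1qb changed by 0.35 (exact permutation test, adjusted p = 0.046). The C1qb change missed 0.05 without benign sample 1 (0.20, adjusted p = 0.083), 2 (0.051) or 5 (0.059) and without any 1 of the tumors (adjusted p = 0.073 to 0.12, exact permutation tests). Benign sample 1 had the lowest C1q values against this list (1.78 for C1qa), and it also had the highest level of the list itself. Within the list, Mrc1 (-2.28), Cd163 (-2.64) and Timd4 (-5.17), genes of resident macrophages, fell, Cx3cr1 (2.44) and Fcgr1 (1.28) rose, and Adgre1 (-0.20, edgeR adjusted p = 0.44) was not called. Timd4 was at 57.6 CPM in benign sample 1, the library with lymph node transcripts, and at most 11.99 CPM in any other sample, so its value rests in part on that library. Marco, also in the list, was at 21.5 CPM there and at most 0.4995 CPM elsewhere. Lyz2, the list's most abundant gene, fell by 1.19. It too was highest in benign sample 1, at 658.8 CPM against 182.8 to 329.2 CPM in the other benign samples.

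Against the same list, C3 (-3.61), Serping1 (-2.16), C1ra (-1.87), C7 (-1.59) and Cfb (-1.51) were lower in tumors (exact permutation tests, adjusted p = 0.0032 to 0.017), and C4b missed 0.05 (0.32, adjusted p = 0.57). Without benign samples 3, 4 and 6, Cfb (adjusted p = 0.097) and C7 (0.086) missed 0.05 in these permutation tests. With its counts near 0 in tumors, the value of C7 against each list moved with the added count, and with 0.5 in place of 2 added counts it was -2.61 here (adjusted p = 0.014, exact permutation test).

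Against the fibroblast list, C3 was the only gene of the 9 that was lower in tumors (-1.08 log2 units), in 6 of 6 tumors (exact permutation test, adjusted p = 0.0032). C1qa, C1qb, C1qc and C4b were higher against it by 2.73 to 2.89 log2 units, in 6 of 6 tumors each (exact permutation tests, adjusted p = 0.0032). The mean of the fibroblast list fell by 3.35 log2 units. A gene that fell by less than this had to come out higher, so these values show only a smaller fall than that of the list. C1ra was higher by 0.66 (adjusted p = 0.022, exact), in 5 of 6 tumors. Serping1 changed by 0.37 log2 units against the list (-0.10 ± 0.40 in benign tissue and 0.27 ± 0.16 in tumors, exact permutation test, adjusted p = 0.086), and the change passed 0.05 without benign sample 4 (0.46, adjusted p = 0.038), benign sample 6 (0.47, adjusted p = 0.030) or benign samples 3, 4 and 6 together (0.68, adjusted p = 0.017). Cfb (1.02, adjusted p = 0.093, exact permutation test) also missed 0.05, passing it without tumor 5 (1.39, adjusted p = 0.0062). C7 gave 0.94 (adjusted p = 0.10), 1.21 without benign sample 6 (adjusted p = 0.029) and -0.15 with 0.5 added counts (adjusted p = 0.83, exact permutation tests), so its direction against this list was not determined. Against the adipocyte list all 9 genes were higher in tumors, by 3.72 log2 units for C3 to 7.68 for C1qb (adjusted p = 0.0032, exact). The mean of this list fell by 8.14 log2 units, more than any of the 9 genes. A gene that fell by less had to come out higher, so this direction says nothing about the 9 genes. Of the 10 luminal epithelium genes 8 rose, beside 28.2% of all genes tested. Against this list 8 of the 9 complement genes were lower, from -1.07 log2 units for C1qb to -5.03 for C3 (exact permutation tests, adjusted p = 0.0032 to 0.0062), and C4b missed 0.05 (-1.10, adjusted p = 0.15). The mean of this list rose by 0.61 log2 units. A gene that fell had to come out lower, so this direction adds nothing to the fall of each gene. With the median of that list in place of its mean, the values ran lower, at -1.72 for C1qb and -5.68 for C3 (adjusted p = 0.0031, exact permutation tests).

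**Figure D5:**
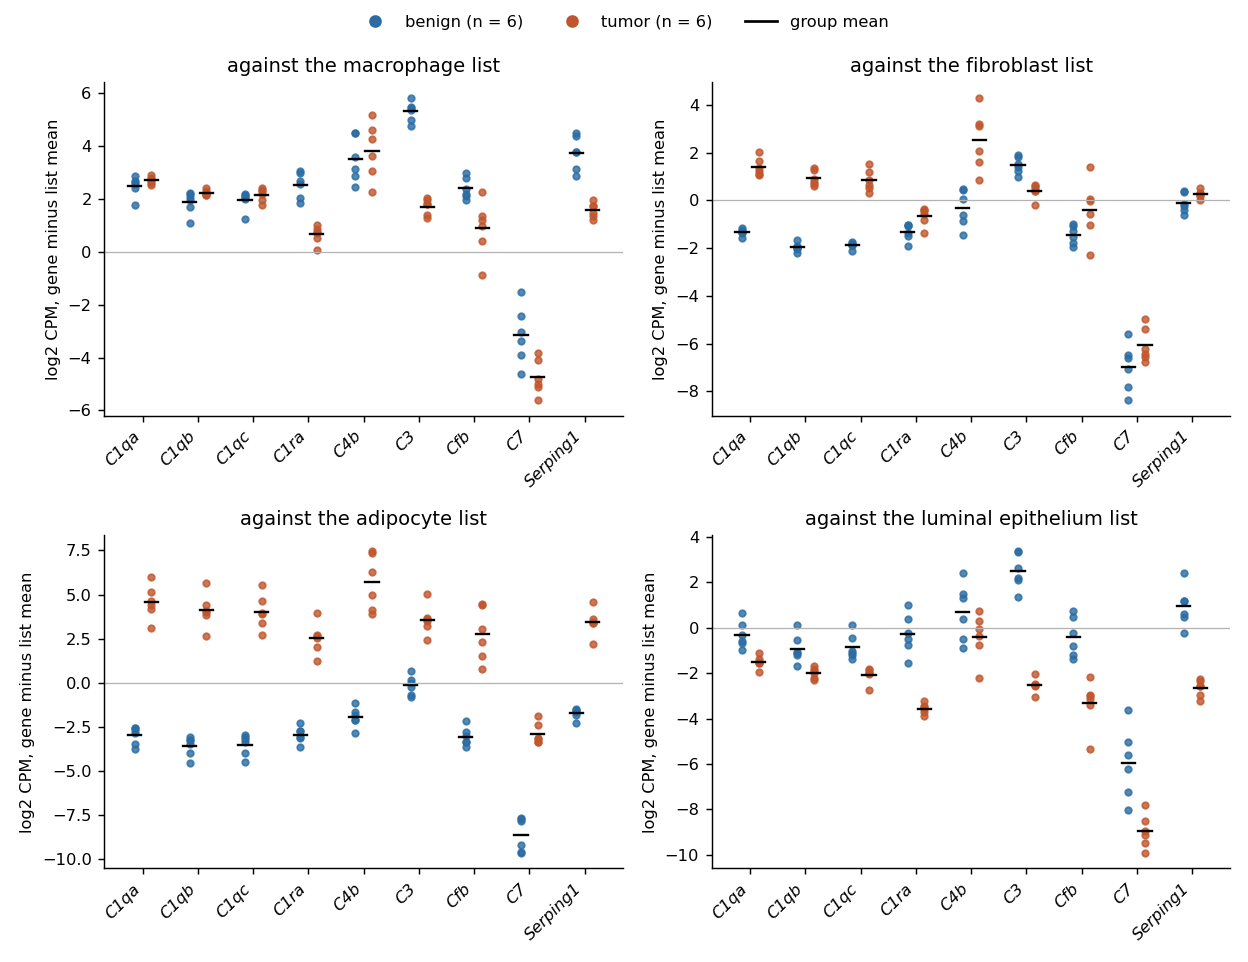
Log2 CPM of each complement gene minus the mean log2 CPM of a marker list (vertical axes) in each benign sample (blue) and tumor (orange), with group means as black lines. The C1q genes differ between the group means by 0.20 to 0.35 against the macrophage list, while C3 drops in 6 of 6 tumors against the macrophage and fibroblast lists.

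Among inflammatory and acute phase genes, 3 of 11 tested genes were higher, beside 28.2% of all genes tested, 2 were lower, beside 34.8%, and 6 were not called. Lcn2, an acute phase gene of epithelia and the most abundant of this list, rose from 99.9 to 262 CPM in benign tissue to 3637 to 7624 CPM in tumors (log2 fold change 4.86, edgeR adjusted p = 4.7e-08), Cebpb (1.33) and Stat3 (0.70) rose, and Saa3 and Socs3 fell by 1.58 each. The NF-kappaB subunits Nfkb1 and Rela were not called (0.08 each).

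The sample-to-sample pattern of each gene was compared with 10903 genes of at least 10 CPM by Pearson's correlation of log2 CPM centred within each group, over the 12 samples, as a description. C1qa was most like C1qc (0.966), Cpne2 (0.961) and Lgmn (0.950), and C1qc most like C1qa and F2rl1 (0.944). C1qb was most like Rab3il1 (0.955), Parva (0.936) and Entpd1 (0.933). C3 was most like C1ra (0.905), Gadd45b (0.897) and Mmp11 (0.885). For C1ra the genes were Zxdc (0.917), Klf13 (0.915) and Rnf144a (0.906), and for Serping1 they were Timp3 (0.933), Tshz2 (0.923) and Akr1c14 (0.916). C4b was most like Zswim4 (0.949), Fgl2 (0.937) and Cfb (0.936), and Cfb most like Gbp3 (0.954), Iigp1 (0.946) and Gm4951 (0.946). All these samples share 1 scaling of their libraries. The highest of 10903 correlations over 12 samples run high by selection alone, and whether these exceed chance was not tested.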

How the data were processed

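Poly A RNA of 6 mammary tumors and 6 benign mammary tissues was sequenced as paired reads. The authors quantified transcripts with Salmon and deposited counts per gene as whole numbers, not scaled for library size. The submitters' processing notes also name Trim Galore, DESeq2 and mm10. Versions and the annotation are not given in the sources used here. It names 16411 genes by symbol, none summing to under 5 counts, and 0 columns were left without a sample. Samples were grouped by their labels. The labels do not tie each sample to a mouse, so p-values measure the spread between these samples. Every pair of samples within a group differed by more than sampling noise (smallest chi-square per degree of freedom 13.1 in benign tissue and 17.2 in tumors).

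Genes were filtered with filterByExpr by group (minimum count 10, minimum total 15), scaled by TMM and tested with edgeR 4.0.16 in R 4.3.3 (glmQLFit, glmQLFTest, two-sided, Benjamini-Hochberg over 13191 genes, called under 0.1). The threshold follows the study, and the SE is the log2 fold change over the square root of F. DESeq2 1.42.0 was an alternative. The log2 CPM used 2 added counts. Single values were compared by exact permutation over the 924 regroupings of 6 against 6 samples and adjusted over 36 values per family. List genes with a mean under 1 CPM in both groups were left out of list means. The floor was 3 counts or fewer in each library of a group, 0.414 CPM at the mean library size, which covers counting error only. The test was checked on simulated counts.

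The genes and lists were chosen with earlier results of these data known. Named were all 9 genes, every other complement gene called or at the floor, of the marker and inflammatory lists the most abundant gene and those a result turns on, and the 3 genes most like each gene (mean of at least 10 CPM). Membrane regulators and receptors that were not called were named after their values were seen. Alternatives were DESeq2, upper-quartile scaling, total counts, at least 1 count in total, a threshold of 0.05, at least 10 counts in every sample, the replicate block, 0.5 added counts, list medians, leaving out each sample, and leaving out benign samples 3, 4 and 6. Leaving out benign samples 1, 3, 4 and 6 was chosen after seeing the data. Some genes that these rules select are not reported here. Positions came from GENCODE M21 on GRCm38, which may differ from the authors' annotation.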

Additional observations from a re-analysis of the deposited data

Results flagged for a closer look

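Among 76 groups of 6 values (complement genes by group), 4 held a sample far from the others by Dixon's gap test, where chance alone flags about 1 in 20 groups. C1qb was lowest in benign sample 4, at 58.8 CPM against 72.4 CPM in the next sample. Itgb2 was highest in benign sample 1, at 121.9 CPM against 28.3 CPM, the library with lymph node transcripts. In tumor 5, Cd55 was at 24.9 CPM against 94.2 CPM in the next tumor, and Calr was at 617 CPM against 971 CPM.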

How the results depend on the processing

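The count of the 9 genes called lower was 7, stayed between 6 and 8 under the other settings and between 5 and 7 when 1 sample was left out (5 without tumor 1). With DESeq2, or at least 1 count in total, C7 made it 8. None was higher under any setting. The log2 fold change of C4b turned to 0.07 without benign samples 1, 3, 4 and 6, and ran from -0.47 to 0.06 when 1 sample was left out, turning sign without tumor 1 (0.01) or 5 (0.06). Of the other complement genes, 11 in place of 18 were lower when every sample had to hold at least 10 counts, a filter that removes genes that fell to few counts. Of 36 pairs of genes, 24 changed past 0.05 and 0 without benign samples 1, 3, 4 and 6. With 2 against 6 samples, the smallest p of the exact test passes after adjustment only where most values of a family reach it. In the same setting 27 of the 36 values against a marker list passed. The 0 among the pairs therefore gives no verdict on any single pair. The medians over all genes tested stayed within 0.1 of 0 in every fit. The replicate numbers did not pair the samples, which came from different mice. Correlations of same-numbered samples ran from -0.12 to 0.1, and 0 of 12 samples matched their own number best. With the replicate block, 7 of the 9 genes and 18 other complement genes were lower. C7 and the other genes near the floor are limited by depth.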
